A study of Mus musculus with 8 samples.

Results

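Gene expression of Gli1+ cells and stellate cells was compared in uninjured mouse liver. The comparison rests on 4 of the 8 libraries of the study, 2 of Gli1+ cells and 2 of stellate cells, chosen by their titles, and covers every gene listed in them. Of 30395 genes listed, 16446 reached 1 CPM, a read count scaled to the total of its library, in 2 or more of the 8 libraries and were tested. Described here are 4 classes of genes: surface receptors (632 tested), transcription factors (472), secreted factors (397) and genes of metabolism and transport (1166). Some of their members, such as Ngfr, Lhx2, Colec11, Ecm1 and Lrat of stellate cells and Gas6, Pi16 and Clec3b of portal fibroblasts, are also in the marker lists used below to check the labels.

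All mice, at an age of 8 weeks and on a mixed background of C57BL/6 and SWR/J, carried the genotype Gli1:CreER+/-; Ai9+/-, those that gave stellate cells included. The Gli1:CreER allele makes a tamoxifen-dependent Cre recombinase where the Gli1 gene is active, and Ai9 is a red fluorescent reporter that Cre switches on. The other 4 libraries hold both populations from mice in which the bile duct had been tied 5 d earlier (bile duct ligation, BDL), which blocks bile flow. They entered the filter on low values and the model, where they help to estimate the spread between replicates, and they show the order of the populations after BDL. The series text calls the Gli1+ cells peribiliary mesenchymal cells. Perfused livers were dissociated by collagenase and pronase, a gradient enriched the cells of interest, and sorted cells went straight into RNA buffer. SMART-Seq2, which amplifies full-length cDNA, gave the libraries. The sources used here give neither the sort gates, nor the tamoxifen schedule, nor how many animals made up a library. Replicates 1 and 2 are not stated to be separate animals, and p-values then reflect the spread between libraries alone, which may be technical. The 2 uninjured stellate libraries are an exception. Replicates 1 and 2 had 164 and 0.104 CPM of Xist, a female transcript, and 0.0612 and 197 CPM of Ddx3y, a Y-linked gene. They thus came from different animals, and sex was mixed within that group.

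Stellate cells lie between hepatocytes and the sinusoidal endothelium, store vitamin A as retinyl esters, and respond to vasoactive hormones like other pericytes. Gli1+ cells of many organs are fibroblasts and pericytes around larger vessels and ducts, and in the liver they lie around bile ducts in the portal tract. Both populations can give rise to collagen-producing myofibroblasts after injury. Receptors and transcription factors set which signals a cell can answer, while ligands, inhibitors and transporters set what it offers to its neighbours.

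Library totals were 11261775 and 17526202 reads in Gli1+ cells and 16351324 and 19180370 in stellate cells, so that 3 reads in 1 library corresponded to 0.156 to 0.266 CPM. Stellate markers marked the stellate libraries and portal fibroblast markers the Gli1+ libraries. Of 19 stellate markers 17 were lower in Gli1+ cells, and of 18 portal and adventitial fibroblast markers 16 were higher. Gli1 itself (ENSMUSG00000025407, chromosome 10, 127329882 to 127341974, minus strand; mouse genome GRCm38, also called mm10, GENCODE vM21) was read at 14.9 and 7.59 CPM in Gli1+ cells and had no read in stellate cells.

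Transcripts of other cell types also differed between the libraries. The 15 mesothelial markers, all called higher, summed to 5985 and 13942 CPM in the Gli1+ libraries and to 10.8 and 21.4 CPM in the stellate libraries. The 16 cholangiocyte markers, 10 of them called higher, summed to 4738 and 3420 CPM against 7.22 and 4.12 CPM, and 6 and 8 of them had no read in the stellate libraries. Mesothelial cells cover the liver and cholangiocytes line its bile ducts, and both are epithelial. Values of the Gli1+ libraries are those of the whole sort, and in bulk libraries more cells of a type and more RNA per cell cannot be told apart. The part of these transcripts in the results below was not tested.

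The 2 stellate libraries stood apart from each other. Their 18 macrophage markers summed to 14195 CPM in replicate 1 and to 79.98 CPM in replicate 2, with 4417 and 2054 CPM in the Gli1+ libraries. Of these 18, 0 passed the test by limma, edgeR, limma-voom or DESeq2 in all libraries (0 at an unadjusted p under 0.05 by limma, 1 by DESeq2), but 15 were higher in Gli1+ cells without stellate replicate 1 and 7 were lower without stellate replicate 2. Xist, which is transcribed from the inactive X chromosome of females, was read at 164 and 0.104 CPM in stellate replicates 1 and 2, and Ddx3y of the Y chromosome at 0.0612 and 197 CPM. Both Gli1+ libraries had Ddx3y, at 140.3 and 103 CPM. Over the 4 libraries summed hepatocyte markers ran from 228 to 1319 CPM and endothelial markers from 379 to 1525 CPM. Summed Schwann cell markers ran from 0.104 to 215 CPM. Called higher in Gli1+ cells were 2 of 18, 3 of 18 and 1 of 5 tested members, and 1 endothelial member was called lower. Of all genes tested 8.06% were called higher and 3.02% lower. The 14 smooth muscle and pericyte markers summed to 1450 and 1664 CPM in Gli1+ cells and to 5338 and 12789 CPM in stellate cells, with 5 members called higher and 5 lower in Gli1+ cells. Mitochondrial transcripts made up 3.51 and 2.21% of the CPM in Gli1+ cells and 1.40 and 0.808% in stellate cells.

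More genes were higher in Gli1+ cells than in stellate cells, and of the 4 classes secreted factors had the greatest share called higher (23.4%). By limma on log2(CPM + 1), 1325 genes (8.06% of those tested) were higher and 497 (3.02%) were lower at a Benjamini-Hochberg (BH) adjusted p under 0.05. Over all genes tested the log2 fold change had a median of 0.32, and of 0.14 after scaling by the trimmed mean of M values (TMM), so small differences are to be read against that shift. With TMM scaling 1166 genes were higher and 570 lower. Single libraries weighed on these counts, since without uninjured Gli1+ replicate 1 there were 755 higher and 295 lower, without Gli1+ BDL replicate 2 877 and 326, and without stellate BDL replicate 1 or 2 829 and 306 or 823 and 305. A fit of the 4 uninjured libraries alone called 0 genes by limma, with 3020 at an unadjusted p under 0.05, whereas edgeR called 1217, limma-voom 1509 and DESeq2 2996 in all 8 libraries.

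The text below therefore leads with genes called in the fit of all 8 libraries and again, in the same direction, in each of the 8 fits without 1 library. This requirement was added after the data had been seen. Such kept calls numbered 509 higher (3.09% of genes tested) and 196 lower (1.19%). Among secreted factors 51 were higher (12.8%) and 20 lower (5.04%), and among surface receptors 45 higher (7.12%) and 32 lower (5.06%). Metabolic genes had 50 higher (4.29%) and 18 lower (1.54%), and transcription factors 16 higher (3.39%) and 7 lower (1.48%). The median log2 fold change was 1.16 for secreted factors, 0.54 for metabolic genes, 0.39 for surface receptors and 0.36 for transcription factors. The plot of called shares by family shows that most families held members on both sides.

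**Figure D1:**
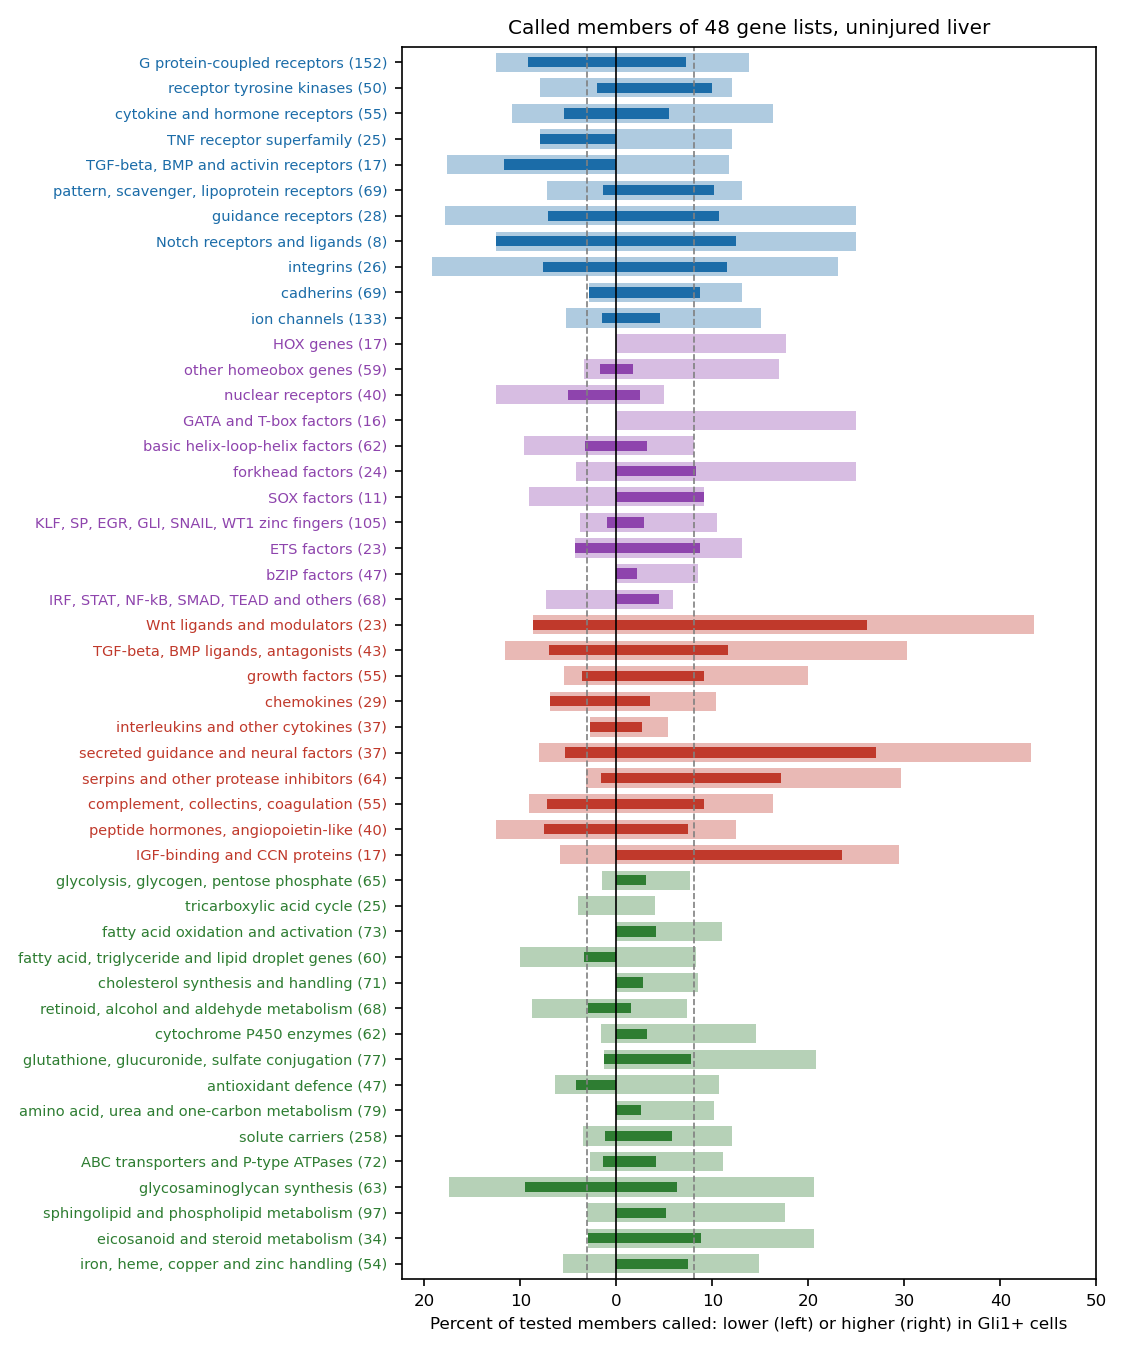
Share of tested members called in each gene family, to the right for members higher in Gli1+ cells and to the left for members lower; light bars are calls in the fit of all 8 libraries, dark bars those kept in every fit without 1 library, and dashed lines the shares of all genes tested (8.06% and 3.02%). Bars of most secreted families pass the right line, while families of transcription factors vary from none kept (HOX, GATA and T-box genes) to a few.

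Surface receptors differed in both directions. Kept calls on the stellate side included the receptors of endothelin (Ednra), parathyroid hormone (Pth1r), angiotensin II (Agtr1a), erythropoietin (Epor) and neurotrophins (Ngfr). Kept calls on the Gli1+ side included Npy1r, Met, Il18r1, Il17re, Scara5 and the epithelial adhesion genes Itgb4, Dsg2 and Cdh1. In all, 94 of 632 tested receptors, channels and adhesion molecules were higher in Gli1+ cells and 59 lower (14.9 and 9.34%, against 8.06 and 3.02% of all genes). Without uninjured Gli1+ replicate 1 the 94 became 60. Of the kept calls, 35 of 45 higher and 28 of 32 lower also passed under every other pseudocount, filter, scaling and test tried on all 8 libraries.

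G protein-coupled receptors pass signals from hormones, transmitters and lipids to intracellular G proteins. Of 152 tested, 11 kept a call higher in Gli1+ cells and 14 a call lower (7.24 and 9.21%, against 3.09 and 1.19% of all genes). Called in all were 21 and 19, and the median log2 fold change was 0.39. Ednra, the endothelin A receptor that drives contraction (ENSMUSG00000031616, chromosome 8, 77663031 to 77724464, minus strand), was read at 14.2 and 4.74 CPM in Gli1+ cells and 437 and 889.7 CPM in stellate cells. This is a log2 fold change of -6.06 ± 0.53 (SE; limma BH-adjusted p = 0.000428). Stellate cells stood far above Gli1+ cells in both libraries, and the same order was seen after BDL, at 15.1 and 14.1 CPM against 564 and 428 CPM.

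The other kept receptors on the stellate side had these levels. Pth1r, which binds parathyroid hormone, had 1100.5 and 1416 CPM in stellate cells and 32.4 and 21.1 CPM in Gli1+ cells. Agtr1a, a receptor of angiotensin II, had 1119 and 1822 against 58.3 and 114 CPM. Adra2b, an alpha-2 adrenergic receptor, had 934 and 1672 against 44.9 and 30.9 CPM. No library of one population reached the level of the other in any of these genes. Vipr1 (vasoactive intestinal peptide), Calcrl (a component of calcitonin gene-related peptide and adrenomedullin receptors), S1pr3 (sphingosine 1-phosphate), Ptger2 (prostaglandin E2), Ptafr (platelet-activating factor), P2ry1 (ADP), Ccrl2 and F2r, the thrombin receptor, completed the list with Adora2a and Sucnr1. Adora2a, an adenosine receptor, and Sucnr1, the succinate receptor, lost their calls with edgeR, and Sucnr1 also with limma-voom (highest BH-adjusted p among the alternatives 0.0577 and 0.0789). The log2 fold changes of the 14 ran from -6.06 to -2.49. Gcgr, the glucagon receptor, had 287 and 213 CPM in stellate cells against 0.799 and 2.8 CPM, but missed the threshold without uninjured Gli1+ replicate 1 (limma BH-adjusted p = 0.0529).

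On the Gli1+ side the 11 kept receptors had log2 fold changes of 3.78 to 6.85. Npy1r, a receptor of neuropeptide Y (ENSMUSG00000036437, chromosome 8, 66697192 to 66706792, plus strand), was read at 38.4 and 53.9 CPM in Gli1+ cells, and the stellate libraries together held 1 read of it. The ratio of the summed reads, scaled to equal depth, was 1698 with a 95% interval of 304 to 67129 (an exact interval that covers counting error only, as do those below), and the limma BH-adjusted p was 0.0025. Ackr3, which binds and removes the chemokine Cxcl12, had 679.7 and 145 CPM against 5.44 and 0.156 CPM, but lost its call with limma-voom (BH-adjusted p = 0.0846). Adenosine receptors lay on both sides, since Adora1 (31.6 and 38.5 CPM in Gli1+ cells, 0 and 0 in stellate cells) and Adora2b (13.5 and 34.1 against 0 and 0 CPM) were higher in Gli1+ cells and Adora2a was higher in stellate cells. The Wnt receptors Fzd2 and Fzd6, the Hedgehog transducer Smo, the R-spondin receptor Lgr6 and the orphan or adhesion receptors Gprc5a, Adgrd1 and Adgrg2 were the remaining ones. Lgr6 lost its call with edgeR and without the filter on low values.

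Receptor tyrosine kinases bind growth factors and phosphorylate themselves. Of 50 tested, 5 were kept as higher in Gli1+ cells and 1 as lower (10 and 2%, against 3.09 and 1.19% of all genes). Met, the receptor of hepatocyte growth factor and widely expressed by epithelia, was read at 59.1 and 119 CPM in Gli1+ cells and in 2 reads over both stellate libraries. The ratio was 1699.6 with a 95% interval of 470.0 to 14041 with a limma BH-adjusted p of 0.00137. Hgf, its ligand, was on the other side, at 387 and 1418 CPM in stellate cells and 7.28 and 7.02 CPM in Gli1+ cells. Mst1r, the relative of Met that binds macrophage-stimulating protein, had 43.2 and 70.1 CPM in Gli1+ cells and 0 and 0.104 CPM in stellate cells. Ntrk2, the receptor of brain-derived neurotrophic factor, and the ephrin receptors Ephb1 and Ephb6 were also higher, though Ephb1 lost its call with limma-voom (BH-adjusted p = 0.0569). Fgfr2, a fibroblast growth factor receptor, was the kinase receptor kept on the stellate side, at 1237 and 2059 CPM against 80.4 and 29.8 CPM (limma BH-adjusted p = 0.000718).

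Most cytokine and hormone receptors did not differ by the test, since 40 of 55 were not called and the median log2 fold change was 0.017. Il18r1, a chain of the interleukin 18 receptor, was read at 87.1 and 149.6 CPM in Gli1+ cells, and Il17re, a chain of the receptor of interleukin 17C, at 117 and 69.4 CPM. The stellate libraries held 2 reads of each, so the ratios were 2223 with a 95% interval of 615 to 18362 and 1564 with a 95% interval of 433 to 12925, with limma BH-adjusted p of 0.00088 and 0.00107. Il20ra, a chain of receptors of the interleukin 10 family, had 18.6 and 19.7 CPM in Gli1+ cells and no read in stellate cells. In the opposite direction Epor, the erythropoietin receptor, had 123 and 186 CPM in stellate cells and 2 reads over both Gli1+ libraries, a ratio of 2262 with a 95% interval of 626 to 18683 in favour of stellate cells (limma BH-adjusted p = 0.00096). Lifr, the receptor of leukaemia inhibitory factor, had 666 and 1234 against 85 and 70.3 CPM, and Crlf3 was the third kept on that side. Thus 3 of 55 tested cytokine and hormone receptors were kept in each direction (5.45%, against 3.09% higher and 1.19% lower over all genes).

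Of 25 members of the tumour necrosis factor receptor family tested, 2 were kept as higher in stellate cells, as were 2 of 17 of the transforming growth factor beta (TGF-beta) receptor family (8 and 11.8%, against 1.19% of all genes). None was kept as higher in Gli1+ cells, which for families of this size is near the share of 3.09% over all genes. Ngfr, the low-affinity neurotrophin receptor, had 522 and 1798 CPM in stellate cells and 28.3 and 19.5 CPM in Gli1+ cells (log2 fold change -5.31 ± 0.58 (SE), limma BH-adjusted p = 0.00107). Tnfrsf21, the death receptor 6, had 263 and 732 against 16.4 and 18.1 CPM. Stellate replicate 2 was the higher of its group for both, and the groups did not overlap. Bambi, a decoy receptor of TGF-beta signals, had 472 and 457 against 88.4 and 42.2 CPM, and Eng, a co-receptor of Bmp9 and Bmp10, 1569.6 and 2312 against 285 and 114 CPM. Fas, Tnfrsf12a and Acvr1b of these families were called higher in Gli1+ cells in the fit of all libraries but lost the call without 1 or more libraries.

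Of 69 scavenger and lipoprotein receptors tested, 9 were called higher and 5 lower, 55 were not called, and 7 and 1 were kept (10.1 and 1.45%, against 3.09 and 1.19% of all genes). Scara5, a receptor of ferritin, was read at 563 and 197 CPM in Gli1+ cells and in 1 read over both stellate libraries (ratio 12083 with a 95% interval of 2168 to 477320, limma BH-adjusted p = 0.000428). Its relative Scara3 had 184 and 99.5 against 0.122 and 0.156 CPM, and the lipoprotein receptor relatives Lrp2, Sorl1, Vldlr and Lsr were also higher, Lsr losing its call with limma-voom. Clec3b, a secreted C-type lectin taken into the family by its name, had 1011 and 373 against 0.0612 and 0.261 CPM. Scarb1, the receptor of high-density lipoprotein, was higher in stellate cells at 135 and 169 against 20.1 and 29 CPM (log2 fold change -2.60 ± 0.40 (SE), limma BH-adjusted p = 0.00507).

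Cadherins join neighbouring cells, and their kept members lay on both sides. Dsg2, a desmosomal cadherin of epithelia, had 118 and 293 CPM in Gli1+ cells and 0 and 0.261 CPM in stellate cells. The epithelial cadherin Cdh1 had 139 and 31.2 against 0.0612 and 0 CPM. Cdh2, the cadherin of mesenchymal and neural cells, was the reverse, at 108 and 251 CPM in stellate cells against 3.46 and 6.96 CPM in Gli1+ cells (log2 fold change -4.80 ± 0.58 (SE), limma BH-adjusted p = 0.00163). Cadherins in all had 6 of 69 tested kept as higher in Gli1+ cells and 2 as lower (8.70 and 2.90%, against 3.09 and 1.19% of all genes). Among these cadherins Cdh11, Cdh13, Celsr2 and Clstn3 lost their calls under 1 alternative each. Cdh1, Cdh3 and Dsg2 are epithelial or mesothelial genes, and their part in the difference between mesenchymal cells was not tested.

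Integrins bind the extracellular matrix and differed by subunit. Itgb4, a laminin receptor subunit of hemidesmosomes, was read at 27.6 and 63.7 CPM in Gli1+ cells and in 1 read over both stellate libraries (ratio 1761 with a 95% interval of 316 to 69615, limma BH-adjusted p = 0.00326). Itga3, another laminin receptor subunit, had 87.3 and 239 against 18 and 21.8 CPM. Itga1, a collagen receptor subunit, was higher in stellate cells at 344 and 612 against 45.2 and 47.2 CPM. Itgb3, which binds vitronectin and fibrinogen, was higher there too at 111 and 159 against 15.4 and 3.88 CPM (log2 fold change -3.90 ± 0.58 (SE), limma BH-adjusted p = 0.00412). Of 26 tested, 3 were kept as higher and 2 as lower (11.5 and 7.69%, against 3.09 and 1.19% of all genes). The third of the higher ones, Itgbl1, is a secreted relative rather than a receptor.

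Of 28 guidance receptors tested, 3 were kept as higher in Gli1+ cells and 2 as lower (10.7 and 7.14%, against 3.09 and 1.19% of all genes). Of 8 Notch receptors and ligands 1 was kept in each direction (12.5%). Nrp2, which binds class 3 semaphorins and vascular endothelial growth factors, had 47.4 and 98.1 CPM in Gli1+ cells and 0.245 and 0.0521 CPM in stellate cells (log2 fold change 5.92 ± 0.59 (SE), limma BH-adjusted p = 0.000721). The semaphorin receptors Plxna4 (165 and 262 against 11.9 and 5.58 CPM) and Plxna2 (17.5 and 18.6 against 0 and 0 CPM) went the same way. Robo2, a receptor of Slit proteins, was higher in stellate cells at 76.1 and 97.7 against 8.88 and 5.25 CPM. Notch1 was also higher there at 84.3 and 70.8 against 13.8 and 11.5 CPM, while its ligand Dll1 had 19 and 15.7 CPM in Gli1+ cells and 0 and 0.0521 CPM in stellate cells. After BDL the groups overlapped for Dll1, at 15.2 and 14 against 17.6 and 8.33 CPM, and for Plxna2, at 20.5 and 28 against 21.6 and 24.5 CPM.

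Ion channels had 6 of 133 tested kept as higher and 2 as lower, and 106 were not called. The shares kept were 4.511 and 1.504%, near the 3.09 and 1.19% of all genes. Kcnj8 and Abcc9 encode the pore and the sulfonylurea receptor of a potassium channel that is gated by ATP and relaxes vessel walls. Kcnj8 had 659 and 966 CPM in stellate cells and 24.9 and 79.5 CPM in Gli1+ cells, and Abcc9, listed with the ABC transporters, 1857 and 1707 against 93.8 and 61.1 CPM. Their log2 fold changes (± SE) came to -4.13 ± 0.51 and -4.54 ± 0.43, at limma BH-adjusted p of 0.00178 and 0.0006. Kcnab1, a regulatory subunit of voltage-gated potassium channels, had 63 and 165 CPM in Gli1+ cells and no read in stellate cells, at least 1479-fold higher. Gjb1, Gjb5, Kcnb2, Kcnh3 and Ano9 were also higher there, and the connexin Gja4 was higher in stellate cells. Gjb5, Kcnb2, Kcnh3 and Gja4 lost their calls with limma-voom, edgeR or no filter.

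**Figure D2:**
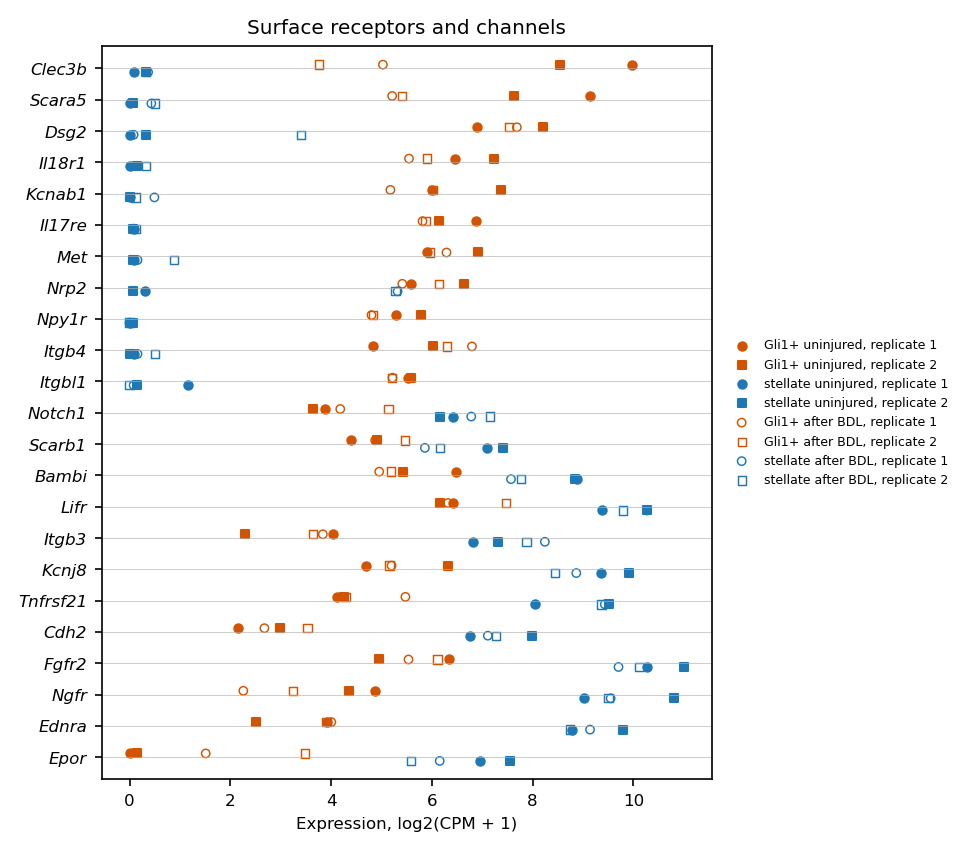
Levels of named surface receptors in the 8 libraries as log2(CPM + 1), orange for Gli1+ and blue for stellate cells, filled symbols for uninjured and open ones for BDL libraries, circles for replicate 1 and squares for replicate 2. Genes are ordered by their uninjured difference, as for Ednra (14.2 and 4.74 against 437 and 889.7 CPM). Only genes without overlap between the populations in uninjured liver were chosen for display.

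Transcription factors bind DNA and set which genes a cell type can use. Kept calls on the Gli1+ side included Osr1, Ebf1, Ebf2, Sox9, Ehf and Foxq1, and those on the stellate side Nr1h4, Nr1h5, Lhx2, Tcf21 and Epas1. Of 472 tested, 53 were higher and 25 lower in Gli1+ cells, of which 16 and 7 were kept. Counts moved with single libraries. The 53 became 29 without uninjured Gli1+ replicate 1, 34 or 35 without a Gli1+ BDL library and 27 without a stellate BDL library. The 25 became 16 without an uninjured Gli1+ library, 13 without uninjured stellate replicate 1, 12 or 11 without a Gli1+ BDL library and 10 without a stellate BDL library. Of the kept ones, 13 of 16 and 7 of 7 passed under every other alternative tried on all 8 libraries.

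Some factors of the Gli1+ side are known from mesenchyme. Osr1, a zinc finger factor of the embryonic mesenchyme of the gut and kidney (ENSMUSG00000048387, chromosome 12, 9570116 to 9581500, plus strand), was read at 168 and 119 CPM in Gli1+ cells and in 1 read over both stellate libraries. The ratio was 4909 with a 95% interval of 880.5 to 193930 and the limma BH-adjusted p 0.000935. Ebf1 had 165 and 70.1 against 1.1 and 0.261 CPM (log2 fold change 6.06 ± 0.77 (SE), limma BH-adjusted p = 0.00205), and Ebf2 had 58.7 and 26.9 CPM and no read in stellate cells, at least 466-fold higher (limma BH-adjusted p = 0.00281). Both Ebf genes encode factors of adipose and lymphoid precursors that were listed beside the basic helix-loop-helix factors. Vgll3, a cofactor of TEAD proteins, had 77 and 51.8 CPM against 2 reads over both stellate libraries (ratio 1095 with a 95% interval of 303 to 9047).

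Other factors of the Gli1+ side are known from epithelia. Sox9, a factor of bile duct cells and cartilage, was read at 81.2 and 25.6 CPM in Gli1+ cells and in 3 reads over both stellate libraries (ratio 561 with a 95% interval of 191 to 2723, limma BH-adjusted p = 0.00483). The epithelial ETS factor Ehf had 88.3 and 34 CPM in Gli1+ cells and 3 reads in stellate cells, and its relative Elf3 64.6 and 27.4 CPM and no read. Tfcp2l1 had 49.3 and 26.8 CPM in Gli1+ cells and no read in stellate cells (at least 421-fold higher), and the forkhead factor Foxq1 had 16.5 and 35.7 CPM and no read (at least 334-fold higher). Gli1+ replicate 1 was the higher of its group for Sox9, Ehf, Elf3 and Tfcp2l1, and replicate 2 for Foxq1. Klf5, Onecut2 and Foxa2 were kept as well, but Onecut2 lost its call with limma-voom (BH-adjusted p = 0.0873) and Foxa2 without the filter on low values (BH-adjusted p = 0.0622). Sox9, Ehf and Elf3 are among the 16 cholangiocyte markers whose sums are given above, and after BDL Gli1+ libraries had 259 and 115 CPM of Ehf. Wt1, a mesothelial factor at 129 and 375 against 0.122 and 6.99 CPM, was called in the fit of all libraries but not by edgeR, limma-voom or without Gli1+ replicate 2 (BH-adjusted p = 0.0929, 0.0616 and 0.0628).

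Nuclear receptors are factors switched by lipids and hormones. Nr1h4, the bile acid receptor FXR (ENSMUSG00000047638, chromosome 10, 89454234 to 89533585, minus strand), had 327 and 369 CPM in stellate cells and 51.4 and 15.3 CPM in Gli1+ cells. Nr1h5, its sister gene that binds lanosterol, had 343 and 615 against 10.4 and 3.99 CPM. The log2 fold changes (± SE) came to -3.57 ± 0.52 and -5.93 ± 0.56, at limma BH-adjusted p of 0.00378 and 0.000584. Both stellate libraries exceeded both Gli1+ libraries for either gene, also after BDL, when stellate cells had 145 and 178 CPM of Nr1h5 and Gli1+ cells 0.403 and 0.898 CPM. Of 40 nuclear receptors tested, 1 was kept as higher and 2 as lower (2.5 and 5%, against 3.09 and 1.19% of all genes).

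The other kept stellate factors were Lhx2, Tcf21, Epas1, Ets1 and Snai2. Lhx2, a homeobox factor known to restrain stellate cell activation, had 322 and 141 against 11.6 and 9.64 CPM (log2 fold change -4.21 ± 0.65 (SE), limma BH-adjusted p = 0.00507). Tcf21, a basic helix-loop-helix factor of mesenchyme, had 478 and 768 against 71.5 and 54.9 CPM. Epas1, a hypoxia-inducible factor, had 609 and 863 against 109.6 and 38.1 CPM. These factors were not absent from Gli1+ cells, where Tcf21 and Epas1 were above 30 CPM in both libraries. Ets1 had 444 and 713 against 97.1 and 30.0 CPM, and Snai2, a repressor of epithelial genes, 52.5 and 100.4 against 8.61 and 3.88 CPM. Gata4, a factor known from stellate cells that was singled out after its values had been seen, did not pass, at 110.1 and 149.8 CPM in stellate cells against 58.3 and 79.4 CPM in Gli1+ cells (log2 fold change -0.91 ± 0.69 (SE), limma BH-adjusted p = 0.477).

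Fosl2, a member of the AP-1 family, was the bZIP factor kept as higher in Gli1+ cells, at 152 and 133.6 against 16.6 and 11 CPM (log2 fold change 3.30 ± 0.36 (SE), limma BH-adjusted p = 0.000986). Its order did not hold after BDL, where stellate cells had 124 and 99.4 CPM and Gli1+ cells 113 and 104 CPM. The test of that change did not pass (difference -3.34 ± 0.50 (SE) on the log2 scale, limma BH-adjusted p = 0.151). Of 17 HOX genes tested 3 were called higher (17.6%) and 0 kept. Of 16 GATA and T-box factors 4 were called higher (25%, against 8.06% of all genes) and 0 kept. Hoxa5 had 16.9 and 31 CPM in Gli1+ cells against 20.7 and 4.69 CPM in stellate cells, and the groups overlapped.

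**Figure D3:**
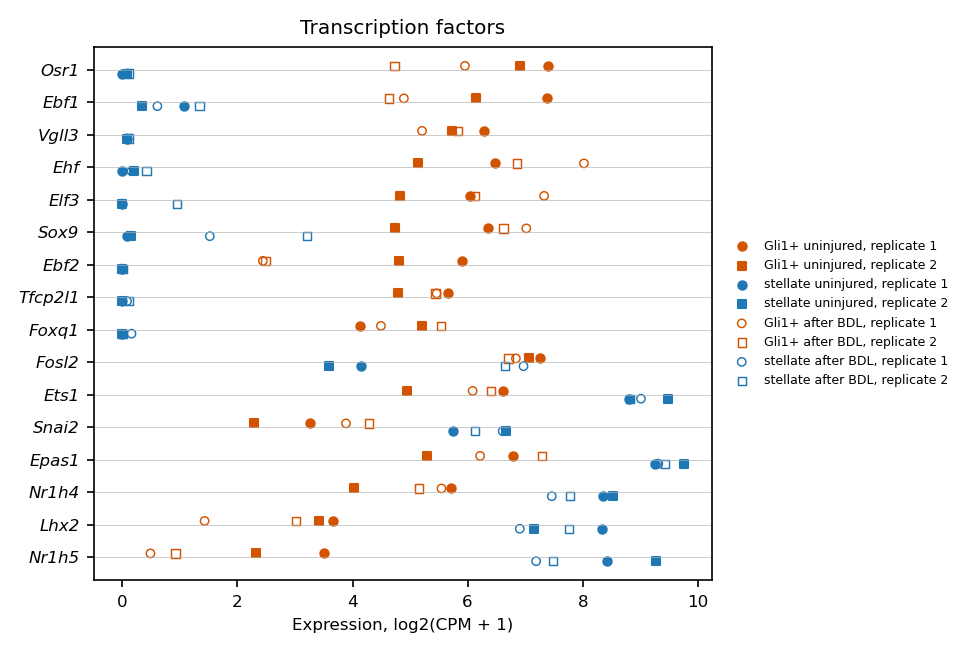
Levels of named transcription factors in the 8 libraries as log2(CPM + 1), with the same colours and symbols as for the receptors. Osr1 and Foxq1 lie near 0 in uninjured stellate cells (for Osr1, 0 and 0.0521 CPM), whereas the 6 factors of the stellate side were also read in Gli1+ cells (for Ets1, 97.1 and 30.0 CPM).

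Secreted factors held the greatest share of kept calls of the 4 classes. Kept calls on the Gli1+ side included Sfrp1, Sema3c, Slit3, Gas6, Pi16, Serpinf1 and Nbl1, an inhibitor of bone morphogenetic proteins (BMPs). Those on the stellate side included Gdf2, Bmp10, Colec11, Il34, Cxcl12 and Cxcl14. Of 397 tested, 93 were higher and 27 lower in Gli1+ cells in the fit of all libraries (23.4 and 6.80%, against 8.06 and 3.02% of all genes). Shares kept were 12.8 and 5.04%, against 3.09 and 1.19% of all genes. Of the 51 and 20 kept, 31 and 18 passed under every other alternative tried on all 8 libraries. Gli1+ replicates could differ widely in this class, as for Slpi, an inhibitor of neutrophil elastase at 1539 and 13199 CPM, which lost its call with limma-voom (BH-adjusted p = 0.0985).

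TGF-beta and BMP ligands and their antagonists lay on both sides. Gdf2 encodes BMP9 and Bmp10 its close relative, ligands that reach endothelial cells through the blood. Gdf2 (ENSMUSG00000072625, chromosome 14, 33941039 to 33947198, plus strand) was read at 1379 and 2161 CPM in stellate cells and 21.5 and 36.9 CPM in Gli1+ cells. Bmp10 (ENSMUSG00000030046, chromosome 6, 87428994 to 87437677, plus strand) was read at 181 and 83.4 CPM in stellate cells and in 2 reads over both Gli1+ libraries. For Gdf2 the log2 fold change was -5.89 ± 0.47 (SE; limma BH-adjusted p = 0.000284), and the ratio for Bmp10 was 1846 with a 95% interval of 511 to 15245 in favour of stellate cells (limma BH-adjusted p = 0.000816). Bmp5 had 264 and 415 CPM in stellate cells and no read in Gli1+ cells. The antagonist Nbl1 was the reverse, with 971 and 506 CPM in Gli1+ cells and 7.09 and 5.53 CPM in stellate cells (log2 fold change 6.59 ± 0.61 (SE), limma BH-adjusted p = 0.000555), as were the antagonist Grem1, the latency protein Ltbp2 and the ligand Bmp7. Grem1 (14.5 and 9.93 CPM against none) and Bmp7 (32 and 13.7 CPM against none) lost their calls without the filter on low values, Grem1 also with edgeR. Of 43 members tested 5 were kept as higher and 3 as lower (11.6 and 6.98%, against 3.09 and 1.19% of all genes).

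The start regions of Gdf2 and Bmp10 are shown because these 2 related ligands were both far higher on the stellate side. Each sequence is the 250 bases before the RefSeq start, build GRCm38.p6, plus strand, 5′ to 3′, at chr14:33940789-33941038 for Gdf2 and chr6:87428744-87428993 for Bmp10. Capitals mark matches, on either strand, to GATAAG (bound by GATA factors), TAATTA (homeodomain factors), CCACCC (KLF factors; GGGTGG on the plus strand), CAGCTG (some basic helix-loop-helix factors) and GGAATG (TEAD factors).
Gdf2: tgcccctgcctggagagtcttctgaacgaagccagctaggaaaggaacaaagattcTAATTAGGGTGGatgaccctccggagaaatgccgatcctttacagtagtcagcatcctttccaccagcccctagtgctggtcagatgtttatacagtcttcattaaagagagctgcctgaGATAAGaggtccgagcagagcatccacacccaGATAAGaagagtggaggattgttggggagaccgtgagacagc
Bmp10: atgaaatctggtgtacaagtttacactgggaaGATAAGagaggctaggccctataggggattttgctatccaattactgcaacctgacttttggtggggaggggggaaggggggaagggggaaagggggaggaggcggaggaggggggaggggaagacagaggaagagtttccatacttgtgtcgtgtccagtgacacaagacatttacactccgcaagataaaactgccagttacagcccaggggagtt
Gdf2 held GATAAG at 2 places, TAATTA and GGGTGG, and Bmp10 held GATAAG at 1 place. A match is a description of letters and shows no bound factor. In windows of 300 bases around the start, GATAAG was found in 7.87% of 483 promoters of genes lower in Gli1+ cells, 6.23% of 1220 promoters of genes higher, and 5.59% of all 14879 promoters of tested genes. Shares for genes lower, genes higher and all were 2.07, 3.36 and 2.77% for TAATTA, 39.8, 42.8 and 37.2% for CCACCC, 20.7, 19.7 and 16.0% for CAGCTG, and 16.6, 15.8 and 12.8% for GGAATG. The table had promoters for 355 of the genes lower and 931 of the genes higher.

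Wnt ligands and modulators had a median log2 fold change of 2.18, the highest of the 48 families, against 0.32 for all genes. Of 23 tested, 6 were kept as higher and 2 as lower (26.1 and 8.70%, against 3.09 and 1.19% of all genes). Sfrp1, a soluble Wnt inhibitor, had 249 and 395 CPM in Gli1+ cells and 0.367 and 0.209 CPM in stellate cells (log2 fold change 7.93 ± 0.69 (SE), limma BH-adjusted p = 0.000427). Sfrp4 and the R-spondin Rspo1 were on the same side, and Rspo3 and the inhibitor Frzb on the stellate side. The ligands Wnt7b (27.3 and 12.4 CPM), Wnt5b (27.3 and 12.9 CPM) and Wnt11 (19.8 and 7.87 CPM) were kept as higher in Gli1+ cells. Each lost its call without the filter on low values, and Wnt5b and Wnt11 lost it with edgeR as well. Each population was thus higher in 1 R-spondin and in at least 1 soluble Wnt inhibitor.

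Growth factors had 5 of 55 tested kept as higher and 2 as lower (9.09 and 3.64%, against 3.09 and 1.19% of all genes). Gas6, a ligand of the receptors Tyro3, Axl and Mertk, had 1809.8 and 2114 CPM in Gli1+ cells and 23.1 and 6.05 CPM in stellate cells (log2 fold change 7.23 ± 0.54 (SE), limma BH-adjusted p = 0.000229). Vegfd, a lymphatic growth factor, had 89.7 and 108 against 2.08 and 0 CPM. Fgf9 had 39.2 and 32 CPM against 2 reads and Fgf18 14.8 and 19.2 CPM against 1 read. Fgf18 lost its call with edgeR and without the filter on low values. Ogn, a proteoglycan that the list takes with growth factors, was also higher in Gli1+ cells.

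Chemokines and cytokines had few kept members. Cxcl12, which retains blood stem cells and lymphocytes, had 5538 and 8677 CPM in stellate cells and 472 and 553 CPM in Gli1+ cells. Cxcl14 had 156 and 243 against 23.9 and 17.9 CPM. Their log2 fold changes (± SE) came to -3.76 ± 0.43 and -3.18 ± 0.44, at limma BH-adjusted p of 0.00136 and 0.00292. Il34, a ligand of the macrophage receptor Csf1r, had 224 and 291 CPM in stellate cells and 0.533 and 0.0571 CPM in Gli1+ cells (log2 fold change -7.65 ± 0.89 (SE), limma BH-adjusted p = 0.00142). Ccl11, which attracts eosinophils, had 181 and 62.8 CPM in Gli1+ cells against 0 and 2.76 CPM and lost its call with edgeR (BH-adjusted p = 0.0533). Spp1, osteopontin, a cholangiocyte marker, had 2140.2 and 259 against 2.02 and 2.61 CPM and lost its call with limma-voom (BH-adjusted p = 0.186). Of 29 chemokines and 37 other cytokines tested, 1 of each was kept as higher (3.45 and 2.70%), and 2 and 1 as lower (6.90 and 2.70%). Over all genes the shares kept were 3.09% higher and 1.19% lower.

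Guidance proteins steer axons, vessels and migrating cells. Of those listed with secreted factors, 10 of 37 tested were kept as higher in Gli1+ cells and 2 as lower (27.0 and 5.41%, against 3.09 and 1.19% of all genes). Sema3c, a semaphorin that binds neuropilins and plexins, had 519 and 345 CPM in Gli1+ cells and 0.489 and 0.156 CPM in stellate cells. Slit3, a ligand of Robo receptors, had 257 and 196 against 0.0612 and 0.156 CPM. Their log2 fold changes (± SE) came to 8.34 ± 0.59 and 7.67 ± 0.48, at limma BH-adjusted p of 0.000228 and 0.000149. The ephrins, which are membrane-bound ligands, included Efna1 (50.7 and 84.7 CPM) and Efnb2 (21.2 and 27.6 CPM), both also higher in Gli1+ cells, Efnb2 with no read in uninjured stellate cells. Ntn1, netrin 1, was higher in stellate cells at 446 and 326 against 81.2 and 41.4 CPM (log2 fold change -2.69 ± 0.40 (SE), limma BH-adjusted p = 0.00434), as was Reln. Slit2, Sema3e, Slitrk4, Olfml2b and Spon1, kept on the Gli1+ side, lost their calls under 1 alternative each.

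Complement, lectin and coagulation factors lay on both sides. Of 55 tested, 5 were kept as higher and 4 as lower in Gli1+ cells (9.09 and 7.27%, against 3.09 and 1.19% of all genes). Plat, tissue plasminogen activator (ENSMUSG00000031538, chromosome 8, 22757727 to 22782844, plus strand), had 238 and 177 CPM in Gli1+ cells and 3 reads over both stellate libraries (ratio 2376 with a 95% interval of 812 to 11523, limma BH-adjusted p = 0.000126). F3, tissue factor, a membrane-bound protein that starts coagulation, had 264 and 117 against 0.122 and 0.104 CPM (log2 fold change 7.31 ± 0.76 (SE), limma BH-adjusted p = 0.00088). The complement genes C3, C7 and Cfi were the others on that side. On the stellate side Colec11, a soluble collectin of the lectin pathway, had 3258 and 4608 against 135 and 29.5 CPM (log2 fold change -5.91 ± 0.70 (SE), limma BH-adjusted p = 0.00149). Its partner Colec10, the ficolin Fcna (5722 and 4250.3 against 314 and 101 CPM) and the protease Masp1 (225 and 1197 against 0.444 and 5.53 CPM) were the other 3 lower in Gli1+ cells. Masp1 lost its call with limma-voom (BH-adjusted p = 0.126).

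Of 64 protease inhibitors tested, 19 were called higher and 2 lower, 43 were not called, and 11 and 1 were kept (17.2 and 1.56%, against 3.09 and 1.19% of all genes). Their median log2 fold change was 1.74, against 0.32 for all genes. Pi16, a peptidase inhibitor of adventitial fibroblasts, had 1466 and 437 CPM in Gli1+ cells and 0.367 and 0.261 CPM in stellate cells. Serpinf1, which encodes pigment epithelium-derived factor, had 768 and 434 against 9.97 and 0.261 CPM. The log2 fold changes (± SE) came to 9.25 ± 0.67 and 7.28 ± 0.86, at limma BH-adjusted p of 0.000228 and 0.00149. Serpina3n, Serpinb1a and Spint2 were called in every alternative tried on all 8 libraries, whereas Slpi, Timp1, Wfdc2, Spink4, Spink2 and Itih5 each lost the call in at least 1. The inter-alpha-trypsin inhibitor chain Itih3 was on the stellate side (109.8 and 156 against 3.46 and 4.96 CPM) and lost its call with limma-voom.

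Among hormones and related factors 3 of 40 tested were kept in each direction (7.5%, against 3.09% higher and 1.19% lower over all genes). Penk, the precursor of enkephalins, had 346 and 166 CPM in Gli1+ cells and 2 reads over both stellate libraries (ratio 4203 with a 95% interval of 1163 to 34710, limma BH-adjusted p = 0.000651). Stc2, stanniocalcin 2, had 38.4 and 60.4 CPM against 2 reads (ratio 920.1 with a 95% interval of 254 to 7605). Edn1, the endothelin precursor, had 78 and 17.9 CPM in Gli1+ cells and 0 and 0.0521 CPM in stellate cells, on the opposite side from its receptor Ednra. Ecm1, a secreted matrix protein that restrains latent TGF-beta, had 30228 and 41517 CPM in stellate cells against 1467 and 902 CPM in Gli1+ cells. Angptl2 had 684 and 1564 against 186 and 88.8 CPM and Angptl6 1421 and 2240.3 against 6.66 and 6.22 CPM. The binding proteins Igfbp5 and Igfbp6 and the matricellular proteins Ccn3 (107 and 32.5 CPM against none) and Ccn5 (61.2 and 82.9 CPM against 3 reads) were higher in Gli1+ cells. They were 4 of 17 tested members of their family (23.5%, against 3.09% of all genes).

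**Figure D4:**
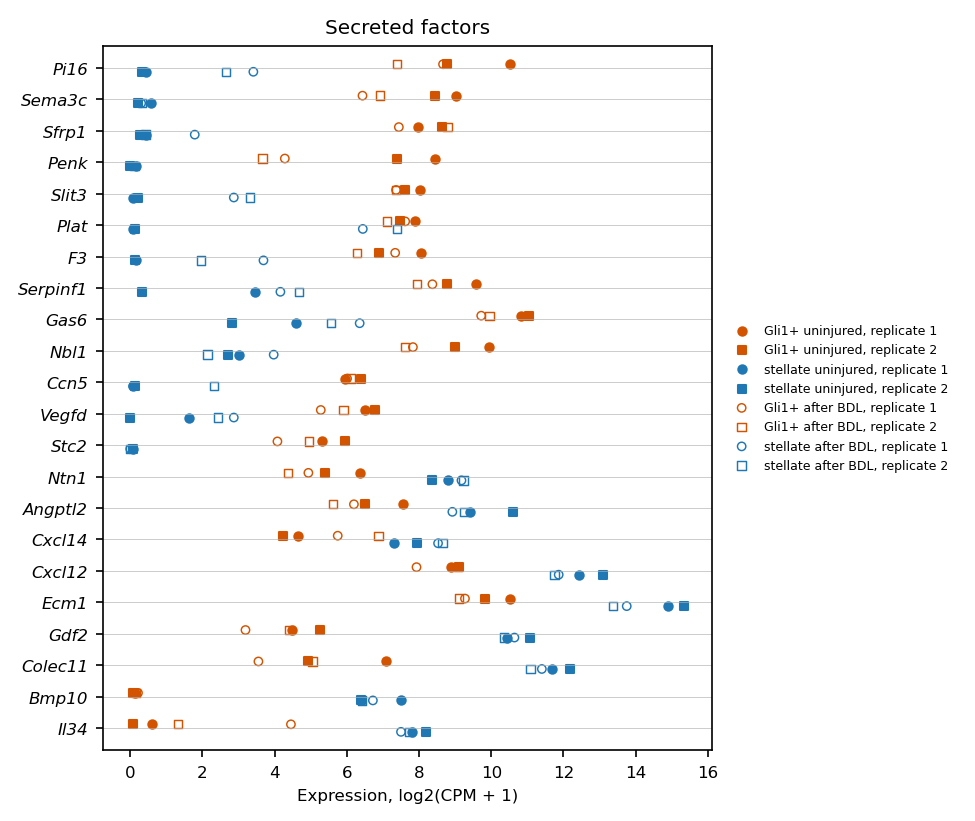
Levels of named secreted factors in the 8 libraries as log2(CPM + 1), with the same colours and symbols. Gdf2, Bmp10, Il34 and Colec11 lie at the stellate end (Gdf2 1379 and 2161 against 21.5 and 36.9 CPM), and the open blue symbols of Plat have moved up to the Gli1+ level (85.9 and 167 CPM).

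Metabolic differences were spread over many families. In the whole class 12.8% were called higher and 3.95% lower, against 8.06 and 3.02% of all genes. Kept were 4.29 and 1.54%, against 3.09 and 1.19% of all genes. Shares kept as higher and lower were 5.81 and 1.16% of 258 solute carriers and 6.35 and 9.52% of 63 glycosaminoglycan genes, against 3.09 and 1.19% of all genes. Of 1166 genes tested, 149 were higher and 46 lower in Gli1+ cells, against 77 and 28 without uninjured Gli1+ replicate 1, 96 and 30 without Gli1+ BDL replicate 2, and 95 and 27 without either stellate BDL library. The 46 also became 30 without Gli1+ BDL replicate 1. Of the 50 and 18 kept, 35 and 18 passed under every other alternative tried on all 8 libraries. Of 25 genes of the tricarboxylic acid cycle 1 was called in each direction and 0 were kept, and of 65 of glycolysis and related pathways 2 were kept, numbers near the share over all genes.

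Those 2 glycolytic genes encode isoforms. Aldoc, aldolase C, had 35.2 and 49 CPM in Gli1+ cells and 2 reads over both stellate libraries (ratio 774 with a 95% interval of 214 to 6402, limma BH-adjusted p = 0.00313). Ldhb, a lactate dehydrogenase subunit, had 65.5 and 144 against 5.63 and 6.41 CPM (log2 fold change 3.81 ± 0.58 (SE), limma BH-adjusted p = 0.00487). Among amino acid genes Ckmt1, mitochondrial creatine kinase, had 209 and 131 against 0.183 and 0.104 CPM. Asns, asparagine synthetase, had 34.9 and 88 CPM against 1 read in stellate cells (ratio 2389.5 with a 95% interval of 428 to 94429). These 2 were the kept ones of 79 tested (2.53%, near the 3.09% of all genes). After BDL Asns had 6.6 and 1.02 CPM in stellate cells and 72 and 40.5 CPM in Gli1+ cells.

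Stellate cells store retinyl esters in lipid droplets, and genes of lipid and retinoid handling were called on both sides. Of 60 lipid droplet and triglyceride genes 5 were called higher (8.33%) and 6 lower, and of 68 retinoid and alcohol genes 5 higher (7.35%) and 6 lower. The shares called higher were near the 8.06% of all genes, whereas the shares called lower, 10 and 8.82%, were above the 3.02% of all genes. G0s2, an inhibitor of the triglyceride lipase Pnpla2, had 562 and 944 CPM in stellate cells and 63 and 20.5 CPM in Gli1+ cells. Gpat2, an acyltransferase of glycerol 3-phosphate, had 454 and 384 against 8.79 and 0.114 CPM. Their log2 fold changes (± SE) came to -4.30 ± 0.52 and -6.99 ± 0.92, at limma BH-adjusted p of 0.00173 and 0.0024. They were the kept ones of their family. Lrat, which esterifies retinol, had 1832 and 2784 against 35.9 and 13.8 CPM. Aldh1a2, which makes retinoic acid and is abundant in mesothelium, was on the Gli1+ side at 73.2 and 189 CPM against 2 reads (ratio 2548 with a 95% interval of 705 to 21043, limma BH-adjusted p = 0.00097).

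Of the called enzymes that oxidise or conjugate drugs and sterols, most were higher in Gli1+ cells. Called higher were 9 of 62 cytochrome P450 genes and 16 of 77 conjugation genes (14.5 and 20.8%, against 8.06% of all genes). In each family 1 was called lower, and 52 and 60 were not called. Of the P450 genes 2 were kept as higher (3.23%, near the 3.09% of all genes) and 0 as lower. Of the conjugation genes 6 were kept as higher (7.79%) and 1 as lower. Median log2 fold changes were 0.469 for P450 genes and 1.11 for conjugation genes, against 0.32 for all genes. Fmo2, a flavin-containing monooxygenase, had 666 and 332 CPM in Gli1+ cells and 0.183 and 0.0521 CPM in stellate cells (log2 fold change 8.72 ± 0.62 (SE), limma BH-adjusted p = 0.000228). The sulfotransferase Sult1c2 had 164 and 66.8 CPM against 2 reads, and Mgst1, a microsomal glutathione transferase, 803 and 2012 against 63.6 and 13.9 CPM. Cyp2s1, a cytochrome P450 of epithelia, had 255 and 369 CPM against 2 reads in stellate cells (ratio 5769.5 with a 95% interval of 1597 to 47648, limma BH-adjusted p = 0.000229). Cyp3a13 had 68.1 and 33.9 against 0.0612 and 0.156 CPM. Counts of Cyp3a13, Ugt2b34 and Ces2g are uncertain, since these genes have close relatives with which reads could be shared. Papss2, which makes the sulfate donor, was the conjugation gene kept on the stellate side, at 274 and 436 against 55.3 and 36.7 CPM (log2 fold change -2.91 ± 0.40 (SE), limma BH-adjusted p = 0.00282).

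Antioxidant and steroid genes gave further stellate members. Sod3, extracellular superoxide dismutase, had 5221 and 7735 CPM in stellate cells and 1011 and 529 CPM in Gli1+ cells. Ggt5, which cleaves glutathione conjugates and leukotriene C4, had 312 and 238 against 17.7 and 29.3 CPM. Hsd11b1, which regenerates active glucocorticoid, had 837 and 2558 against 148 and 65.4 CPM. The log2 fold changes (± SE) came to -3.12 ± 0.40, -3.52 ± 0.46 and -3.88 ± 0.58, at limma BH-adjusted p of 0.0022, 0.00239 and 0.00434. Star, which carries cholesterol into mitochondria for steroid synthesis, was on the Gli1+ side at 40.4 and 79.9 CPM against 1 read in stellate cells (ratio 2291 with a 95% interval of 411 to 90529, limma BH-adjusted p = 0.00471). Ptgr1, a prostaglandin reductase, was there too at 63.6 and 52.7 against 0 and 1.15 CPM. Gpx3, a secreted glutathione peroxidase at 1324 and 975 against 110.2 and 24.4 CPM, missed the threshold without uninjured Gli1+ replicate 1 (limma BH-adjusted p = 0.0572).

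Glycosaminoglycan genes were kept on both sides, 4 of 63 tested higher and 6 lower. Heparan sulfate chains bind growth factors and chemokines, and the sulfotransferases that place their 3-O-sulfate differed by isoform. Hs3st1 had 151 and 208 CPM in Gli1+ cells and no read in stellate cells, at least 2196-fold higher (limma BH-adjusted p = 0.000502). Hs3st3b1 had 995 and 1703 CPM in stellate cells and 60.7 and 24.6 CPM in Gli1+ cells, and Hs3st3a1 88.1 and 61.3 against 0.355 and 1.14 CPM. Their log2 fold changes (± SE) came to -5.03 ± 0.55 and -5.45 ± 0.83, at limma BH-adjusted p of 0.00101 and 0.00471. Glypicans, which carry such chains on the cell surface, differed by gene as well, with Gpc3 at 649.6 and 744 against 5.26 and 15 CPM and Gpc4 at 78.2 and 92.2 against 619.6 and 1570.3 CPM in Gli1+ and stellate cells. Hpse, heparanase, which cuts the chains, was higher in stellate cells (353 and 432 against 29.3 and 29.8 CPM), as were Chsy1 and Chst15 of chondroitin sulfate synthesis. Chst4, a sulfotransferase of mucin-type glycans, had 73 and 232 CPM in Gli1+ cells against 3 reads.

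Transporters gave the greatest number of kept metabolic calls, with 15 of 258 solute carriers higher and 3 lower. Slc26a3, a chloride and bicarbonate exchanger of epithelia, had 199.7 and 131 CPM in Gli1+ cells and 1 read over both stellate libraries (ratio 5601 with a 95% interval of 1005 to 221280, limma BH-adjusted p = 0.00114). The zinc importer Slc39a8 had 423 and 1406 CPM in Gli1+ cells and 16 and 0.521 CPM in stellate cells, and Slc39a4, of the same family, 143 and 82.3 CPM against 2 reads. Slco2a1, which takes up prostaglandins (ENSMUSG00000032548, chromosome 9, 102988712 to 103096002, plus strand), had 121 and 119.9 CPM in Gli1+ cells and 0 and 0.156 CPM in stellate cells. Slc4a4, a bicarbonate cotransporter, had 296 and 165 against 2.26 and 0.0521 CPM, and Slc16a1, a lactate transporter, 373 and 284 against 0.122 and 6.67 CPM. On the stellate side Slco2b1, an importer of organic anions, had 358 and 412 against 21.3 and 22.4 CPM (log2 fold change -4.07 ± 0.37 (SE), limma BH-adjusted p = 0.000536), and the nucleoside transporter Slc29a1 663 and 939 against 206 and 119 CPM. Slc9a3r1, kept as higher, and Slc9a3r2, kept as lower, are scaffold proteins of transporters that bear a carrier's name.

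The sodium pump subunit Atp1b1 had 423 and 508 CPM in Gli1+ cells and 0.0612 and 0.938 CPM in stellate cells. In all, 3 of 72 ABC transporters and P-type ATPases were kept as higher (4.17%, near the 3.09% of all genes). Smpd3, a sphingomyelinase, had 196 and 249.6 against 0.122 and 0.156 CPM (log2 fold change 7.61 ± 0.54 (SE), limma BH-adjusted p = 0.000228). Mboat1, an acyltransferase of lysophospholipids, had 63.3 and 64.9 CPM and no read in stellate cells, at least 762-fold higher (limma BH-adjusted p = 0.00143). Sphingolipid and phospholipid genes had 5 of 97 tested kept as higher (5.15%, against 3.09% of all genes) and 0 as lower (3 called lower in the fit of all libraries).

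**Figure D5:**
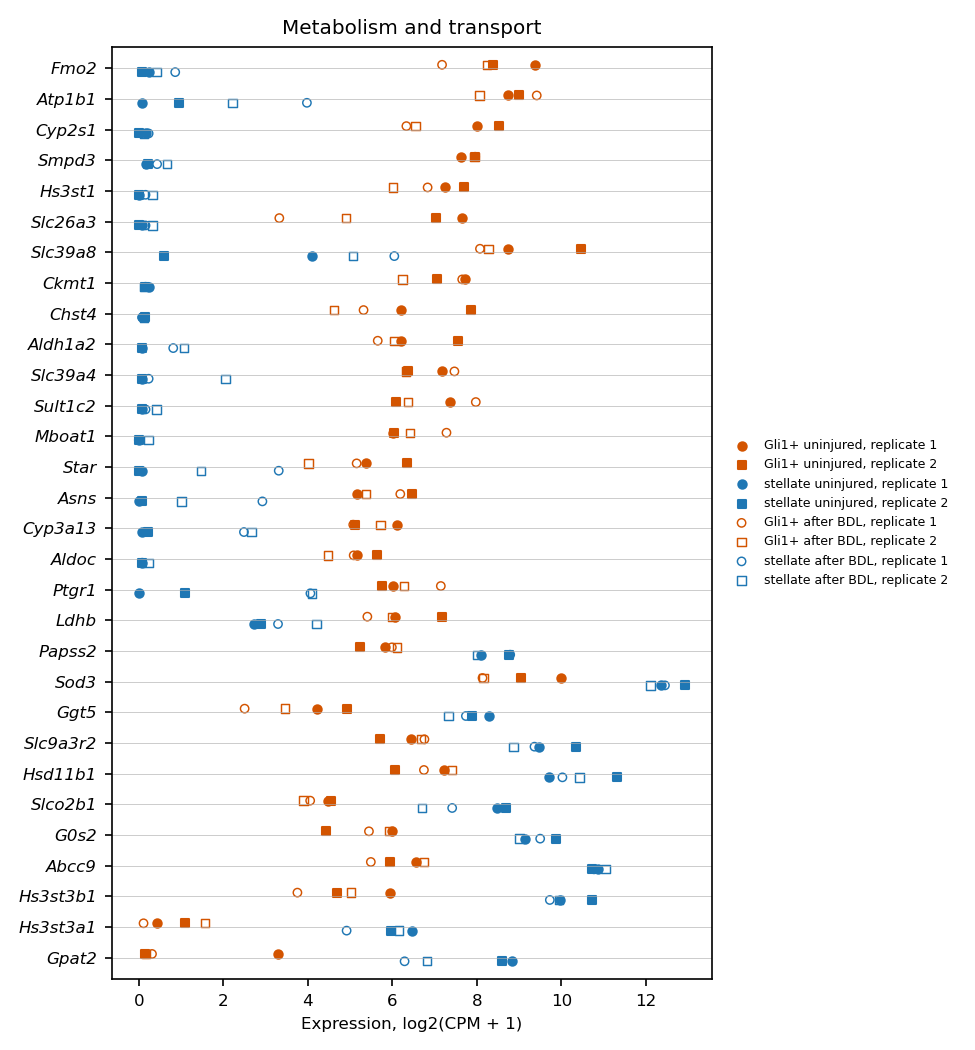
Levels of named metabolic genes in the 8 libraries as log2(CPM + 1), with the same colours and symbols. The upper genes lie near 0 in uninjured stellate cells (Hs3st1 had no read), and open blue symbols of Star, Asns and Ptgr1 lie above the filled ones (Asns 6.6 and 1.02 CPM after BDL).

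Outside the 4 classes, 2 further protein-coding genes with a kept call were among those of largest difference. Gpm6a, a neuronal membrane glycoprotein and mesothelial marker, had 675 and 1971 CPM in Gli1+ cells and 0.306 and 0.313 CPM in stellate cells. Pdpn, podoplanin of mesothelium, lymphatics and fibroblasts, had 535 and 1195 against 0.183 and 0.156 CPM. Their log2 fold changes were 9.78 ± 0.72 and 9.42 ± 0.66 (SE), both with a limma BH-adjusted p of 0.000228. Gli1+ replicate 2 was the higher of its group for Gpm6a and Pdpn, as it was for the summed mesothelial markers.

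The order of the populations was mostly the same in the libraries taken 5 d after BDL. Of the 1325 genes higher in uninjured Gli1+ cells, 1094 (82.6%) were above stellate cells in all BDL libraries and 31 were below in all, and over all genes tested 34.8% were above. Of the 497 lower genes, 444 (89.3%) were below in all BDL libraries and 7 above, against 19.0% of all genes. By class, 77 of 94 higher receptors, 45 of 53 transcription factors, 80 of 93 secreted factors and 120 of 149 metabolic genes were in the same order, and 57 of 59, 21 of 25, 26 of 27 and 41 of 46 on the lower side. Since the BDL libraries entered the same model for the spread, this count describes their levels and is not a separate test.

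In 2 genes (0.0122% of those tested) the difference between populations itself differed after BDL. Plat was read at 85.9 and 167 CPM in stellate cells after BDL, against 0.0612 and 0.104 CPM in uninjured ones, and at 195 and 138 CPM in Gli1+ cells. Slco2a1 was read at 142 and 107 CPM in stellate cells after BDL, against 0 and 0.156 CPM before, and at 122 and 171 CPM in Gli1+ cells. Both genes thus separated the populations in uninjured liver and overlapped after BDL. The change in difference was -7.12 ± 0.64 (SE) for Plat and -6.59 ± 0.58 for Slco2a1 on the log2 scale, both with a limma BH-adjusted p of 0.0175. With 3 reads of each in uninjured stellate cells, these sizes depend on the pseudocount of 1. The count was 0 with a replicate block, with a pseudocount of 5, without the filter on low values, or without either Gli1+ library of either condition or either stellate BDL library. It was 30 with uninjured stellate replicate 1 left out and 6 with replicate 2 left out, and 1230 genes had an unadjusted p under 0.05 in the fit of all libraries.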

How the data were processed

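RNA of sorted cells was measured by SMART-Seq2 in 8 libraries, 2 in each of 4 groups named by the titles. Values are the CPM the authors deposited. Per the submitters' processing notes, FastQC, STAR 2.5.2b, featureCounts, DESeq2 and mm10 were used, and how reads that map to several genes, or the strand, were counted is not given in the sources used here. Steps of the CPM scale gave whole reads for 100% of values within 0.1 read, from which library totals and read counts were recovered. Intervals and the 3-read floor cover counting error only, since no molecular identifiers were used.

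Of 30395 genes, the 16446 that reached 1 CPM in 2 or more libraries were tested on log2(CPM + 1) with limma 3.58.1 (R 4.3.3; 4 residual degrees of freedom before moderation). Fold changes on this scale understate those of low genes. The difference of populations after BDL against before was a contrast of the same fit. Calls have a BH-adjusted p under 0.05 over all genes tested. Alternatives were pseudocounts of 0.1 and 5, no filter or 5 CPM, TMM or size-factor scaling, a replicate block, the 4 uninjured libraries alone, each library left out, and edgeR 4.0.16, DESeq2 1.42.0 and limma-voom on recovered reads. The main limma fit was tested on simulated reads with known changes in the uninjured contrast, and the alternatives were not.

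Gene families were defined by symbol patterns, and families, marker lists and the naming rule were chosen with earlier results of these data known. Some genes listed with secreted factors are therefore membrane-bound, such as F3, Slitrk4 and Spint2. The rule named, in each family, the called genes of largest fold change that reached 20 CPM on the higher side without overlap, 1 in each direction for families under 20 tested members and 2 for longer ones. It also named the 5 largest protein-coding genes in each direction, and a family with no such gene gave its most abundant member. Other genes named come from the kept calls, or were singled out, after their values were seen. Some genes are counted in their families but not reported here. Gene positions come from GENCODE vM21, with 30214 of 30395 genes matched. Promoters come from the RefSeq table of build GRCm38.p6. Python 3.11.15, pandas 2.3.3 and scipy 1.17.1 were used.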

Additional observations from a re-analysis of the deposited data

Results flagged for a closer look

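The difference between Gli1+ and stellate cells itself differed between uninjured and ligated livers for Plat, by -7.12 on the log2(CPM + 1) scale (limma BH-adjusted p = 0.0175). Plat had 0.0612 and 0.104 CPM in uninjured stellate cells and 85.9 and 167 CPM after BDL, with 238 and 177 and then 195 and 138 CPM in Gli1+ cells. The same test passed for Slco2a1, by -6.59 (limma BH-adjusted p = 0.0175), which had 0 and 0.156 CPM in uninjured stellate cells and 142 and 107 CPM after BDL. Of 16446 genes tested these 2 passed. By limma 0 genes passed with a pseudocount of 5 (1221 at an unadjusted p under 0.05), with a replicate block (1143), without the filter on low values (1697), or in 6 of the 8 fits without 1 library.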

How the results depend on the processing

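Counts are given as higher, then lower, in Gli1+ cells, and the cause of each shift was not tested. Without the filter on low values, 556 and 254 genes were called, with 46 and 39 receptors, 17 and 8 transcription factors, 46 higher secreted factors, and 53 and 24 metabolic genes. DESeq2 called 2043 and 953 genes, 147 and 92 receptors, 86 and 48 transcription factors, and 226 and 74 metabolic genes. The edgeR test called 822 genes higher and 27 transcription factors higher. The 4 uninjured libraries alone, with 2 residual degrees of freedom among samples, gave 0 calls by limma in every class (3020 genes at an unadjusted p under 0.05).

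Over the 8 fits without 1 library, genes ranged from 755 to 1378 higher and 295 to 482 lower. Receptors ranged from 60 to 101 and 41 to 59, transcription factors from 27 to 50 and 10 to 22, secreted factors from 65 to 89 and 23 to 29, and metabolic genes from 77 to 144 and 27 to 37. In all 8 of these fits 509 genes were higher and 196 lower, with 45 and 32 receptors, 16 and 7 transcription factors, 51 and 20 secreted factors, and 50 and 18 metabolic genes. Where a library was left out, its partner was assumed to vary like the other groups.

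Replicate numbers were not treated as pairs in the main fit, since no label says that a number marks a shared animal or day. Deviations of the uninjured groups correlated at 0.0786. This value cannot settle the question, because a shared animal or day need not shift both populations alike. Sex-linked genes did separate the uninjured libraries numbered 1. Xist had no read in the Gli1+ library but 164 CPM in the stellate one, where Ddx3y fell to 0.0612 from 140.3 CPM. These libraries thus differed in sex and did not share an animal. Whether those numbered 2 shared an animal, or any of them a day, was not tested. With a replicate block 1151 and 415 genes were called. Genes whose difference changed after BDL, 2 in the fit of all libraries, were 0 with a replicate block (1143 at an unadjusted p under 0.05), with a pseudocount of 5 (1221) and without the filter (1697), and 0 to 30 without single libraries. No count or named gene above reversed direction, but macrophage markers did: 15 of 18 were higher in Gli1+ cells without uninjured stellate replicate 1, and 7 lower without replicate 2. Of the 160 named genes with a call, 97 kept it in every alternative but the 4-library fit. Depth limits low genes: 3 reads were 0.156 to 0.266 CPM.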
